A study of Mus musculus with 18 samples.

Results

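The 39 genes described here mark T cells and natural killer (NK) cells, the lymphocytes that recognise and kill altered cells. They were listed by symbol for their textbook roles, with earlier results of these data known, and cover the T cell receptor (TCR) complex and its coreceptors, TCR-proximal kinases and adaptors, adhesion and costimulatory receptors, lineage transcription factors, the IL-2 receptor chains, cytotoxic effectors, NK receptors, and chemokines with their receptors. All 39 were among the 22792 genes of the count tables and all 39 passed the filter on low counts, which left 15282 genes for testing. They were measured by bulk RNA-seq of poly(A) RNA in 18 tumors, each from its own Balb/c female and grown from 4T1, a triple-negative mammary carcinoma line of that strain. For each mouse 300000 cells had been injected into mammary fat pad number 4 at 8 weeks of age. The groups were Vehicle (solvent only, n = 5), PI3Ki (the pan-PI3K inhibitor CLR457 at 20 mg/kg 2 times a day, n = 4), SHP2i (the allosteric SHP2 inhibitor SHP099 at 100 mg/kg 1 time a day, n = 4) and Combo (both compounds, n = 5), all dosed by gavage from day 7 and collected on day 21. No group carried a genetic change, the hosts were immunocompetent, and whole pieces of tumor with all their host cells were sequenced.

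T cells read antigen through the TCR, whose CD3 chains pass the signal to the kinases Lck and Zap70 and the adaptor Lat, with CD4 or CD8 as coreceptor and CD28 or Icos as costimulator. PI3K acts downstream of the TCR, CD28 and cytokine receptors, and SHP2 is a phosphatase that many receptor tyrosine kinases and inhibitory lymphocyte receptors recruit, so both targets exist in tumor cells and in lymphocytes. NK cells carry no TCR and are steered by activating and inhibitory receptors such as Ncr1 and the killer cell lectin-like (Klr) family. Both cell types kill with perforin, granzymes and Fas ligand and secrete interferon gamma.

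Library totals lay between 21.16 M and 26.62 M counts (median 23.52 M), and levels are given in CPM (counts per M counts after TMM scaling). Several libraries differed in their content of other cells. Fat pad 4 lies at the inguinal lymph node, and genes of B cells and of lymph node vessels were high in some tumors and nearly absent from others. Cd79a, a chain of the B cell receptor, was at 5.49, 18.7, 13.2, 23.6 and 11.8 CPM in Vehicle 1 to 5, at 0.399, 1.97, 12.9 and 33.7 in PI3Ki 1, 2, 3 and 5, at 0.845, 0.867, 0.667 and 0.851 in SHP2i 2 to 5 and at 0.131, 0.671, 15.7, 39.5 and 0.133 in Combo 1 to 5. Glycam1, a mucin of lymph node venules, was at 1.39, 54.3, 32.1, 72.9 and 41.7 CPM in Vehicle, 0.0799, 1.01, 27.95 and 69.5 in PI3Ki, 0.121, 0, 0 and 0 in SHP2i and 0.0438, 0.0447, 6.08, 81.7 and 0 in Combo. Combo 3 and 4 and PI3Ki 3 and 5 were thus the treated tumors with B cell and lymph node transcripts in or above the Vehicle range. The summed level of all 12 B cell markers was 44.8 to 154 CPM in Vehicle, 17.7 to 232 in PI3Ki, 19.1 to 25.3 in SHP2i and 13.1 to 231 in Combo, and Ms4a1 (CD20) was at 0 in Combo 1, 2 and 5. Ptprc (CD45), which marks leukocytes, was at 121, 173, 189.6, 251 and 204 CPM in Vehicle, 40.9, 27.2, 68.7 and 62.6 in SHP2i and 16.3, 29.7, 106, 79.2 and 7.97 in Combo. All 10 skeletal muscle markers were higher in PI3Ki, where their sum was 844 to 2010 CPM against 4.68 to 106 in Vehicle. The 6 carcinoma markers summed to 686 to 1380 CPM over all tumors. In such bulk samples, fewer cells of a type and less RNA per cell cannot be told apart.

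The inhibitors were first compared with Vehicle over all 39 genes. In PI3Ki, 1 gene was higher (Gzmk) and 0 were lower at an adjusted p under 0.05 (edgeR quasi-likelihood test, Benjamini-Hochberg over all genes tested), where 2.69% of all genes tested were higher and 2.42% lower, and 2 of the 39 had an unadjusted p under 0.05. Under SHP2i, 0 genes were higher and 3 were lower, Klrb1c, Klrk1 and Xcl1, beside 6.54% lower among all genes. In Combo, 2 genes were higher, Cd247 and Cxcr6, beside 23.9% of all genes, and 14 were lower beside 19.7%. These 14 were Ncr1, Klrb1c, Klrd1, Klrk1, Klrg1, Xcl1, Ccl5, Gzmb, Prf1, Nkg7, Fasl, Ifng, Tbx21 and Cd8a. The median log2 fold change of the 39 genes was 0.03 in PI3Ki, -0.77 in SHP2i and -0.83 in Combo, against 0.01, 0.02 and 0.02 for all genes tested. In SHP2i 38 of the 39 estimates were below 0, although only 3 passed the test, and when the model held Vehicle and SHP2i tumors alone 15 genes passed, all lower, beside 12.5% of all genes lower in that model. The groups did not overlap for 11 genes in SHP2i, all lower, beside 10.5% of all genes lower in this way. Combo showed 9 such genes lower, beside 13.4%, and 2 higher, beside 15.5%. The 3 comparisons share the Vehicle tumors and are not independent of each other.

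**Figure D1:**
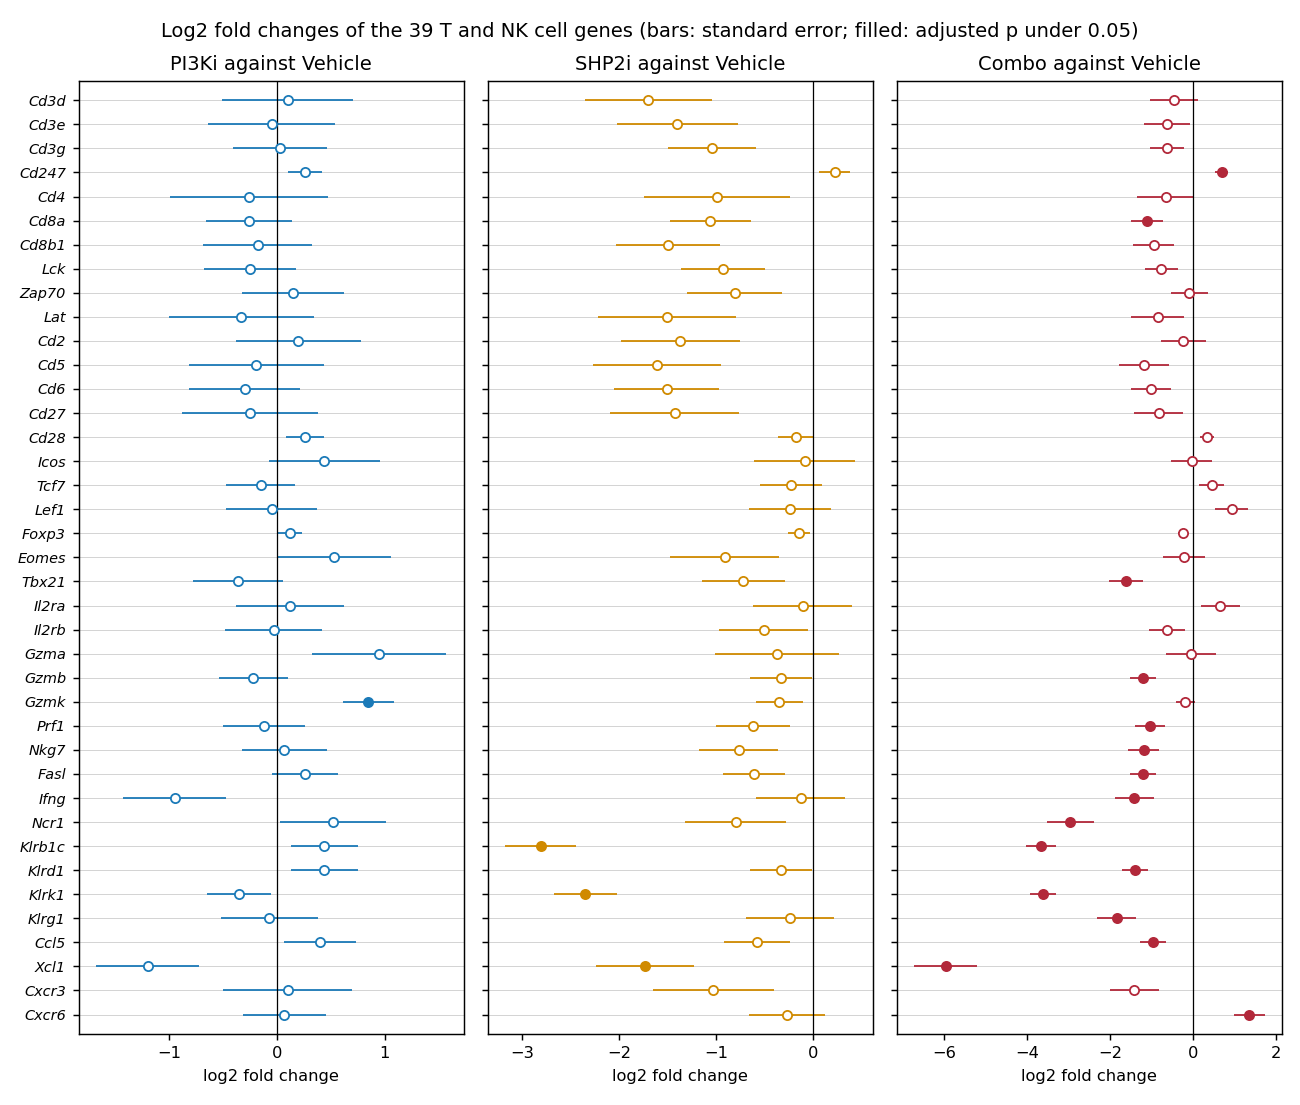
Log2 fold changes (x axis) of the 39 T and NK cell genes (y axis, grouped by role) in PI3Ki, SHP2i and Combo against Vehicle, with standard errors as bars and filled points for an adjusted p under 0.05. In Combo Xcl1, with 1 count in all 5 tumors, lies farthest to the left, the 5 NK receptors lie between -1.40 for Klrd1 and -3.67 for Klrb1c, and Cd247 and Cxcr6 are the filled points on the right. The x axes of the 3 panels differ in range.

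In Combo the NK receptors had the lowest median log2 fold change of the 8 roles, -2.96, while in SHP2i their median of -0.80 was above that of the adhesion and costimulatory receptors (-1.40). All 5 were lower in Combo, beside 19.7% of all genes, and 2 of them, Klrb1c and Klrk1, also in SHP2i, beside 6.54%. In PI3Ki 0 of the 5 were called. Their summed level was 19.9 to 32.6 CPM in Vehicle, 24.4 to 34.0 in PI3Ki, 3.70 to 13.0 in SHP2i and 2.57 to 5.55 in Combo. For 4 of the 5 genes, the exception being Klrg1, every Combo tumor lay below every Vehicle tumor, Combo 3 and 4 included, as for 13.4% of all genes. Genes of leukocytes at large were lower as well, with 4 of 6 called in SHP2i and 5 of 6 in Combo, beside 6.54% and 19.7% of all genes. The leukocyte genes summed to 895 to 1420 CPM in Vehicle, 313 to 592 in SHP2i and 103 to 718 in Combo. Of the macrophage markers 7 of 10, of the neutrophil markers 7 of 9 and of the dendritic cell markers 6 of 8 were lower in Combo. Higher were 1 macrophage and 1 dendritic cell marker. Among all genes, 19.7% were lower and 23.9% higher in Combo. The macrophage markers summed to 1890 to 2410 CPM in Vehicle and 478 to 1990 in Combo, so these sums overlapped. The part of these cells in the NK result was not tested.

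Klrk1 (Entrez Gene 27007, chromosome 6, 129610323 to 129623903, GRCm38.p6) encodes the activating receptor NKG2D of NK cells and cytotoxic T cells. Its level was 8.73, 13.3, 12.9, 17.97 and 17.9 CPM in Vehicle 1 to 5 and 10.7, 13.8, 11.04 and 8.93 in PI3Ki. In SHP2i it was 2.01, 1.32, 3.62 and 4.12 CPM, and in Combo 1.58, 1.12, 1.55, 0.648 and 0.841. All SHP2i and Combo tumors lay below all Vehicle tumors, and PI3Ki overlapped Vehicle. The log2 fold change was -2.35 (SE 0.33, adjusted p = 0.000223) in SHP2i and -3.62 (SE 0.32, adjusted p = 4.12e-07) in Combo. Klrb1c (Entrez Gene 17059, chromosome 6, 128778485 to 128788641), which encodes NKR-P1C, the NK1.1 antigen of some mouse strains, followed the same course. Its values were 4.16, 5.05, 5.102, 7.59 and 6.33 CPM in Vehicle, 10.9, 7.35, 6.47 and 5.95 in PI3Ki, 0.925, 0.456, 0.875 and 0.94 in SHP2i and 0.438, 0.358, 0.816, 0.475 and 0.0886 in Combo. It changed by -2.81 (SE 0.37, adjusted p = 0.000137) on the log2 scale in SHP2i and by -3.67 (SE 0.36, adjusted p = 1.01e-06) in Combo. Both calls in SHP2i and both calls in Combo were kept under every alternative setting listed in the closing section.

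The other NK receptors fell in Combo. Ncr1 (NKp46, Entrez Gene 17086), an activating receptor that is largely restricted to NK cells and related innate lymphoid cells, was at 2.26, 2.66, 1.57, 1.68 and 1.396 CPM in Vehicle, 1.16, 5.04, 2.19 and 2.65 in PI3Ki, 0.764, 0.365, 1.33 and 1.93 in SHP2i and 0.175, 0.224, 0.449, 0.346 and 0 in Combo. Combo 5 had no Ncr1 count at all, and the SHP2i tumors spread from below the Vehicle range into it. The change in Combo was -2.96 (SE 0.56, adjusted p = 0.000488). Klrd1 (CD94), which pairs with NKG2 chains, was at 3.23, 4.38, 3.49, 4.23 and 3.53 CPM in Vehicle and 1.58, 1.21, 1.84, 0.993 and 1.51 in Combo, a change of -1.40 (SE 0.31, adjusted p = 0.00169). In SHP2i it was at 2.54, 0.913, 3.87 and 4.66 CPM, so SHP2i 2 and 3 stood below Vehicle while SHP2i 5 stood above it. Klrg1, an inhibitory receptor of mature NK and effector T cells, was at 1.57, 1.604, 0.959, 1.15 and 0.872 CPM in Vehicle and 0.306, 0.0894, 0.898, 0.259 and 0.133 in Combo, with Combo 3 inside the Vehicle range, and changed by -1.84 (SE 0.47, adjusted p = 0.00495). Klr genes form a multigene family on chromosome 6, and the reference is C57BL/6J while the mice were Balb/c, so reads of related or divergent copies may be assigned unevenly.

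**Figure D2:**
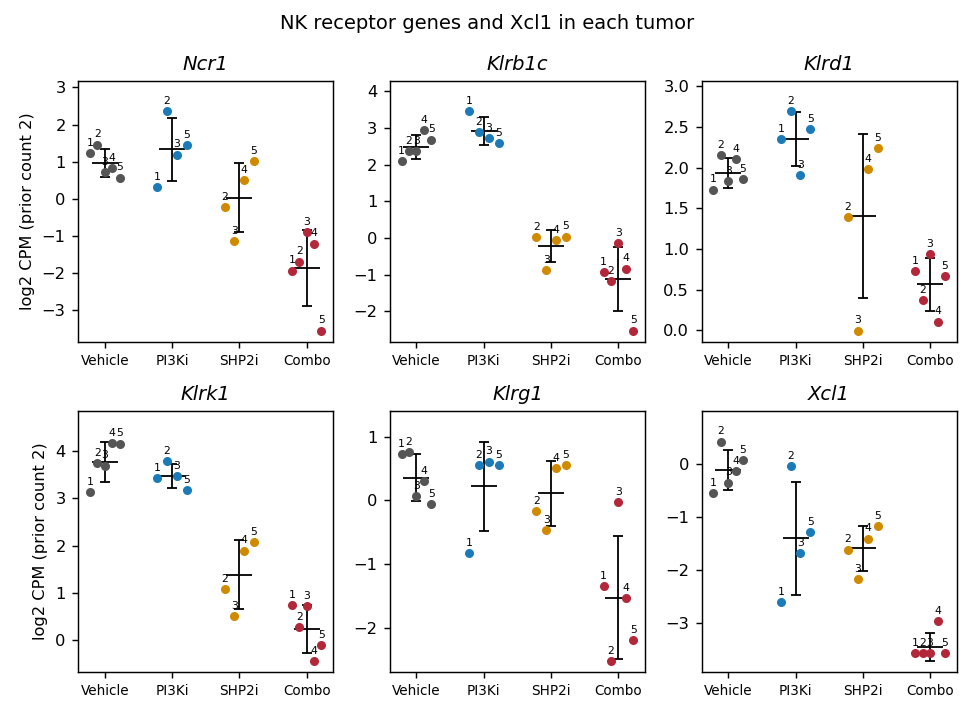
Level of the 5 NK receptor genes and Xcl1 (y axis, log2 CPM with a prior count of 2) in each tumor, by treatment group (x axis), with the replicate number above each point and bars for the group mean and SD. Klrb1c and Klrk1 are lower in all SHP2i and all Combo tumors than in Vehicle, and the 5 Combo tumors lie below the 5 Vehicle tumors in every panel except Klrg1, where Combo 3 overlaps.

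The promoters of the 3 genes that fell in both SHP2i and Combo, and of Ncr1 as the gene most restricted to NK cells, are shown to place these losses in the genome, and were searched for letters of T-box factors, the family of Tbx21 and Eomes, and of Runx factors. Each run is the stretch before the start site, 5′ to 3′ on the gene's own strand, from RefSeq (GRCm38.p6), with matches to TCACAC or GTGTGA (T-box) and TGTGGT or ACCACA (RUNX) in capitals.
Klrb1c (chr6:128788642-128788891, minus strand): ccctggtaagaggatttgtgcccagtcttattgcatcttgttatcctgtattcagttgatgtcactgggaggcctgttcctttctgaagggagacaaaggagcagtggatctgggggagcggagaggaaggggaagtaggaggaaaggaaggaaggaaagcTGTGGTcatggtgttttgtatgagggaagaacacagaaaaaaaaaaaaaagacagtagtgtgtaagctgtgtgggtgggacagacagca
Klrk1 (chr6:129623904-129624114, minus strand): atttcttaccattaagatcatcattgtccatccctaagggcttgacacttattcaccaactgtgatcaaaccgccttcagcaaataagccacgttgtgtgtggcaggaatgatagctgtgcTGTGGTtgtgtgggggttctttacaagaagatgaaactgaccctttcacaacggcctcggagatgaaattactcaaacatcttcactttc
Xcl1 (chr1:164935523-164935772, minus strand): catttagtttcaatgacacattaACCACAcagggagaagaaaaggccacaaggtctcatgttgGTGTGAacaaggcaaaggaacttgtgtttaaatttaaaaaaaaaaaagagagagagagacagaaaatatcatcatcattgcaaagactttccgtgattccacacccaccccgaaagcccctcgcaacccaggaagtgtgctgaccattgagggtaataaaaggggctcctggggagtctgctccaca
Ncr1 (chr7:4337465-4337714, plus strand): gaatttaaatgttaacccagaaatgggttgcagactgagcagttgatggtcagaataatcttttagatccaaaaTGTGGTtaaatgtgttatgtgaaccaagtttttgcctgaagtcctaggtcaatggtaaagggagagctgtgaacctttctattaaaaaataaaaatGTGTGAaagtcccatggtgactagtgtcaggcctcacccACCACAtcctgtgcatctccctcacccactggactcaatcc
Klrb1c and Klrk1 hold 1 RUNX match each and no T-box match, Xcl1 holds 1 of each, and Ncr1 holds 1 T-box match and 2 RUNX matches. The Klrk1 run is shorter, with 211 bases, because its other bases lie within the gene. Of the 29 members with an entry in the table, 7 (24.1%) held the T-box letters and 11 (37.9%) the RUNX letters within 250 bases, beside 12.2% and 14.2% of 27025 promoters. These are descriptions of letters, and no binding was measured. Both motifs are short and do not overlap each other in the runs shown.

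Among the chemokines and their receptors, Xcl1, a chemokine that NK and CD8+ T cells secrete and that attracts cross-presenting dendritic cells, showed the deepest loss. It was at 0.6001, 1.25, 0.698, 0.821 and 0.9596 CPM in Vehicle, 0.0799, 0.882, 0.227 and 0.326 in PI3Ki, 0.241, 0.137, 0.292 and 0.358 in SHP2i and 0, 0, 0, 0.0432 and 0 in Combo. This was 1 count over the 5 Combo tumors against 103 over the 5 Vehicle tumors, a ratio of 0.00988 per count sequenced (95% interval for counting error only, 0.000248 to 0.0563), with an adjusted p of 1.31e-05. The SHP2i tumors held 24 counts and all lay below Vehicle (log2 fold change -1.73, SE 0.51, adjusted p = 0.0342), a call that was lost with a B cell covariate and when any of 8 tumors, Vehicle 2 to 5 and SHP2i 2 to 5, was left out. In PI3Ki the 37 counts gave -1.20 (SE 0.48, adjusted p = 0.17), with PI3Ki 2 inside the Vehicle range.

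Ccl5, a chemokine of effector T and NK cells, was at 11.5, 15.3, 16.9, 21.3 and 17.2 CPM in Vehicle, 13.7, 29.3, 26.6 and 17.3 in PI3Ki, 8.17, 7.76, 14.5 and 13.7 in SHP2i and 5.996, 5.46, 12.6, 14.1 and 4.21 in Combo. Combo 1, 2 and 5 were below every Vehicle tumor and Combo 3 and 4 within the range (log2 fold change -0.96, SE 0.32, adjusted p = 0.0225). The Ccl5 call was lost when Vehicle 4 or Combo 1, 2 or 5 was left out, with a B cell covariate, and in no other setting. Cxcr3, the receptor for interferon-induced chemokines, was at 2.77, 3.25, 3.62, 3.53 and 3.795 CPM in Vehicle and at 0.0875, 1.39, 3.84, 0.907 and 0.133 in Combo, where 4 tumors lay below Vehicle and Combo 3 above it, and it did not pass the test (log2 fold change -1.41, SE 0.59, adjusted p = 0.064).

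Cxcr6, a receptor of tissue-resident and effector T cells and of NKT cells, went the other way. Its level was 5.401, 8.65, 7.24, 7.26 and 7.68 CPM in Vehicle, 7.27, 10.3, 5.18 and 7.703 in PI3Ki, 4.99, 4.06, 6.29 and 8.73 in SHP2i and 11.9, 9.43, 12.4, 46.3 and 13.3 in Combo. All Combo tumors were above all Vehicle tumors, with Combo 4 far above the other four (log2 fold change 1.36, SE 0.37, adjusted p = 0.00671). Without Combo 3 and 4 the log2 fold change was 0.65 (adjusted p = 0.0427). Cxcr6 overlaps Fyco1, and whether the counting used the strand is not given in the sources used here, so reads of Fyco1 may enter its counts. Fyco1 was itself higher in Combo (log2 fold change 1.13, adjusted p = 0.000757), and its part in the result for Cxcr6 was not tested.

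Cytotoxic effector genes fell in Combo in 5 of 7 cases, Gzmb, Prf1, Nkg7, Fasl and Ifng, beside 19.7% of all genes lower. In SHP2i 0 of 7 passed the test. Gzmb (granzyme B), the protease that triggers death of the target cell, was at 13.4, 17.8, 19.2, 15.3 and 15.96 CPM in Vehicle, 6.84, 9.67, 14.04 and 21.5 in SHP2i and 9.02, 8.45, 10.1, 5.01 and 2.83 in Combo. All Combo tumors were below all Vehicle tumors (log2 fold change -1.21, SE 0.31, adjusted p = 0.00479), while SHP2i spanned the Vehicle range on both sides. Fasl (Fas ligand) was at 1.39, 1.49, 1.31, 1.48 and 1.27 CPM in Vehicle, 1.72, 2.31, 1.02 and 1.59 in PI3Ki, 0.604, 0.548, 1.17 and 1.298 in SHP2i and 0.7003, 0.581, 0.898, 0.259 and 0.531 in Combo, again without overlap between Combo and Vehicle (log2 fold change -1.21, SE 0.31, adjusted p = 0.00485). Prf1 (perforin), which forms the pore through which granzymes enter, was at 7.39, 7.86, 8.46, 15.6 and 12.3 CPM in Vehicle and 4.95, 6.13, 5.63, 4.32 and 4.34 in Combo (log2 fold change -1.03, SE 0.36, adjusted p = 0.03). The Prf1 call was lost in 9 of 31 alternatives, among them the model without Combo 3 and 4 and the one with a B cell covariate.

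Ifng, the main cytokine of both cell types, was low in all groups, with 1.06, 1.76, 1.35, 2.34 and 1.79 CPM in Vehicle, 0.759, 0.966, 0.605 and 1.1 in PI3Ki, 1.01, 0.913, 1.54 and 2.64 in SHP2i and 0.875, 0.939, 0.979, 0.216 and 0.0886 in Combo. Combo lay wholly below Vehicle (log2 fold change -1.41, SE 0.46, adjusted p = 0.0194), with 3 tumors just under the lowest Vehicle tumor and Combo 4 and 5 far lower, but the call was lost with a B cell covariate and with a replicate block. Nkg7, a granule membrane protein, was at 4.89, 7.43, 10.7, 12.1 and 9.47 CPM in Vehicle and 3.06, 2.504, 7.38, 4.58 and 1.99 in Combo, with Combo 3 inside the Vehicle range (log2 fold change -1.19, SE 0.38, adjusted p = 0.0186). The call for Nkg7 was lost with a B cell covariate. Gzma (granzyme A) showed no called difference in any group, and its estimate in Combo was -0.05 (SE 0.60, adjusted p = 0.955), with its tumors at 2.63, 3.801, 11.2, 6.44 and 0.177 CPM. Gzma overlaps Cdc20b, and the granzymes form a multigene family whose reads may be shared.

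Gzmk (granzyme K), typical of memory-like CD8+ T cells, was the exception among the effectors. Its level was 48.2, 36.7, 39.4, 40.7 and 34.2 CPM in Vehicle and 92.3, 71.8, 62.8 and 60.8 in PI3Ki, so that all PI3Ki tumors were above all Vehicle tumors, as for 5.16% of all genes (log2 fold change 0.85, SE 0.24, adjusted p = 0.0474). The PI3Ki tumors were also those with high skeletal muscle transcripts, and the part of these in the Gzmk result was not tested. The Gzmk call was lost in 17 of 31 alternatives, among them the model without a filter on low counts, the one with a B cell covariate and the removal of any Vehicle or PI3Ki tumor. Its log2 fold change stayed between 0.71 and 1.04. In SHP2i the level was 24.1, 48.5, 25.7 and 26.7 CPM and in Combo 25.3, 20.7, 38.9, 36.9 and 52.4, neither of which passed the test. Within Combo, Gzmk was highest in Combo 5, which held 47 counts of Cd3e, against 398 in Combo 3 and 305 in Combo 4. Combo 1 and 2, with 45 and 36 counts of Cd3e, held the least Gzmk. Which cells the Gzmk reads came from was not tested. Relative to PI3Ki, Gzmk was lower in Combo, with all Combo tumors below all PI3Ki tumors (log2 fold change -1.05, SE 0.24, adjusted p = 0.00274).

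**Figure D3:**
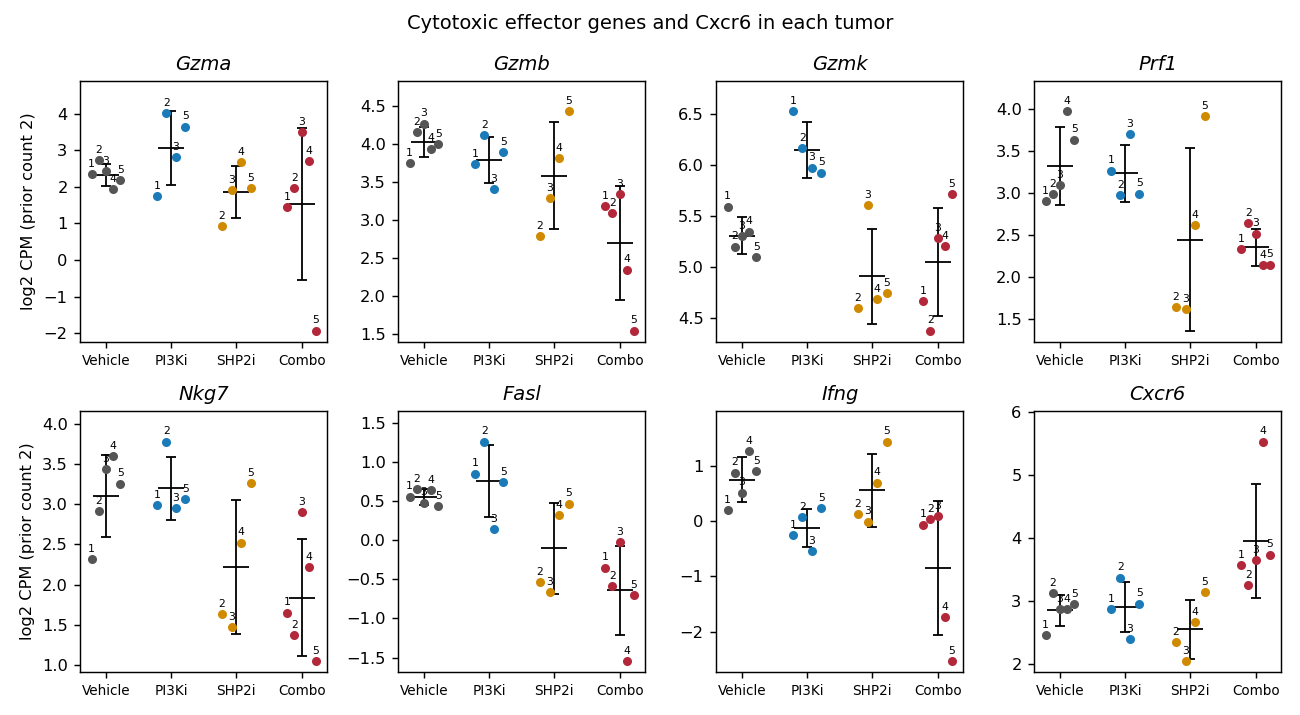
Level of 7 cytotoxic effector genes and Cxcr6 (y axis, log2 CPM with a prior count of 2) in each tumor, by treatment group (x axis), with replicate numbers and bars for the group mean and SD. The Combo tumors lie below the Vehicle tumors for Gzmb, Prf1, Fasl and Ifng, the PI3Ki tumors above them for Gzmk, and the Combo tumors above them for Cxcr6.

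Genes of the TCR complex behaved otherwise, since the Combo tumors fell into separate ranges. Cd3e, a signalling chain of the complex, was at 6.23, 9.897, 10.6, 17.6 and 9.95 CPM in Vehicle, 6.63, 7.48, 15.96 and 11.8 in PI3Ki, 2.62, 2.42, 5.08 and 6.27 in SHP2i and 1.97, 1.61, 16.2, 13.2 and 2.08 in Combo. Combo 3 and 4 lay within the Vehicle range and Combo 1, 2 and 5 below every Vehicle tumor. SHP2i 2, 3 and 4 were below every Vehicle tumor and SHP2i 5 just above the lowest. Neither comparison passed the test, with -1.40 (SE 0.62, adjusted p = 0.143) in SHP2i and -0.63 (SE 0.56, adjusted p = 0.388) in Combo. Cd3d was at 4.76, 8.68, 7.67, 10.8 and 6.499 CPM in Vehicle, 1.81, 1.597, 2.54 and 3.49 in SHP2i and 1.401, 1.12, 10.9, 13.5 and 1.15 in Combo, so that the SHP2i tumors lay wholly below Vehicle (log2 fold change -1.70, SE 0.65, adjusted p = 0.0964) and Combo 3 and 4 above it. Cd3g was at 5.91, 11.3, 11.8, 16.7 and 9.901 CPM in Vehicle, 3.62, 4.02, 6.25 and 7.699 in SHP2i and 2.63, 3.67, 14.97, 11.2 and 3.498 in Combo, with the same arrangement of Combo tumors inside and below the Vehicle range.

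The coreceptors split in the same way. Cd4, of helper and regulatory T cells, was at 7.11, 12.8, 8.42, 17.5 and 8.07 CPM in Vehicle, 2.36, 7.52, 15.01 and 11.2 in PI3Ki, 4.22, 3.42, 6.33 and 7.699 in SHP2i and 0.7003, 2.37, 18.7, 11.5 and 0.753 in Combo. PI3Ki 1, with the lowest B cell transcripts of its group, was the PI3Ki tumor below the Vehicle range, and Combo 3 was the highest tumor of all. Cd8a, of cytotoxic T cells and some dendritic cells, was at 7.85, 16.4, 17.5, 22.9 and 16.4 CPM in Vehicle, 13.7, 13.6, 14.5 and 12.4 in PI3Ki, 4.27, 3.97, 7.46 and 15.4 in SHP2i and 4.86, 4.83, 14.1, 9.55 and 4.12 in Combo. It was the coreceptor gene called lower in Combo (log2 fold change -1.11, SE 0.39, adjusted p = 0.0275), but this call was lost with a B cell covariate and when Vehicle 2 or 4 or Combo 1, 2 or 5 was left out. Cd8b1, the second CD8 chain, was at 3.601, 8.25, 8.33, 11.6 and 7.94 CPM in Vehicle and 1.05, 2.28, 7.18, 8.16 and 1.86 in Combo and did not pass (log2 fold change -0.95, SE 0.49, adjusted p = 0.125).

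Cd247, the zeta chain of the TCR complex that NK cells also use, did not follow the CD3 genes. It was at 27.9, 23.2, 30.3, 38.5 and 37.1 CPM in Vehicle, 32.7, 26.5, 48.6 and 42.1 in PI3Ki, 33.2, 39.3, 37.9 and 35.99 in SHP2i and 46.7, 49.8, 49.7, 60.3 and 47.3 in Combo. All Combo tumors exceeded all Vehicle tumors (log2 fold change 0.69, SE 0.15, adjusted p = 0.00156), those with few B cell transcripts included, and the call was kept in all 31 alternatives. Cd247 shares its span with Pou2f1 and Gm32999, so its counts may hold reads of these genes. Pou2f1, a broadly expressed transcription factor, rose by a like amount in Combo (log2 fold change 0.79, adjusted p = 0.000359), and its part in the result for Cd247 was not tested. The level of Cd247 in Vehicle was 6.89 CPM per kb of exon, near the 7.41 of Cd3e.

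**Figure D4:**
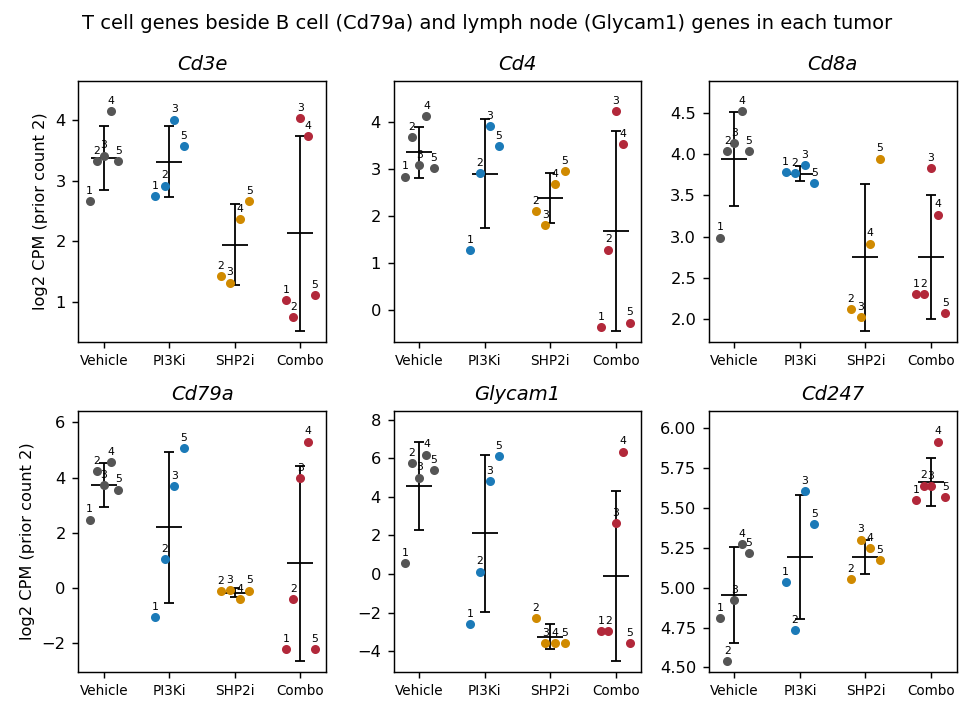
Level of Cd3e, Cd4, Cd8a and Cd247 beside the B cell gene Cd79a and the lymph node gene Glycam1 (y axis, log2 CPM with a prior count of 2) in each tumor, by treatment group (x axis), with replicate numbers and bars for the group mean and SD. Combo 3 and 4 are the high Combo tumors for Cd3e, Cd4, Cd8a, Cd79a and Glycam1, whereas the 5 Combo tumors lie together above Vehicle for Cd247.

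The TCR-proximal genes and most adhesion and costimulatory receptors shared the split. Lck, the kinase that starts TCR signalling, was at 13.9, 21.3, 19.7, 30.2 and 18.2 CPM in Vehicle, 9.21, 9.17, 10.8 and 14.01 in SHP2i and 6.52, 5.54, 25.2, 19.2 and 4.65 in Combo. Lat, the adaptor that gathers the signalling complex, was at 5.12, 8.53, 7.72, 10.01 and 5.19 CPM in Vehicle, 2.33, 1.095, 2.92 and 3.89 in SHP2i and 0.788, 0.984, 10.2, 7.601 and 0.576 in Combo. For both genes Combo 1, 2 and 5 were far below Vehicle and Combo 3 and 4 were not. Zap70, the kinase that binds the phosphorylated chains, was at 2.49, 6.34, 5.93, 6.73 and 4.89 CPM in Vehicle and 2.63, 2.15, 10.2, 7.47 and 2.26 in Combo, where Combo 3 and 4 exceeded all Vehicle tumors. None of the 3 was called in any group, with log2 fold changes of -0.93 for Lck, -1.51 for Lat and -0.81 for Zap70 in SHP2i and of -0.76, -0.85 and -0.09 in Combo.

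Cd2, an adhesion receptor of T and NK cells, was at 4.29, 7.78, 6.76, 9.15 and 5.23 CPM in Vehicle, 2.45, 1.41, 2.96 and 3.45 in SHP2i and 0.963, 2.46, 10.2, 13.1 and 1.59 in Combo. Cd5, which dampens TCR signals, was at 2.82, 4.34, 4.32, 7.92 and 4.19 CPM in Vehicle, 1.01, 0.913, 1.92 and 2.33 in SHP2i and 0.481, 0.671, 5.099, 3.71 and 0.487 in Combo. For Cd2, Cd5, Cd6 and Cd27 all SHP2i tumors lay below all Vehicle tumors, yet 0 of the 4 passed the test, with log2 fold changes from -1.37 for Cd2 to -1.61 for Cd5. Cd6 ranged over 3.97 to 9.68 CPM in Vehicle, 1.53 to 3.17 in SHP2i and 0.939 to 6.73 in Combo. Cd27, a costimulatory receptor of naive and memory cells, ranged over 2.95 to 6.81 CPM, 1.004 to 2.28 and 0.438 to 5.88 in these groups. Icos, a costimulator induced on activated T cells, was at 3.14, 4.62, 4.62, 7.18 and 4.41 CPM in Vehicle and 1.62, 1.83, 10.9, 7.64 and 1.46 in Combo, with Combo 3 and 4 above and the other three below the Vehicle range (log2 fold change -0.03, SE 0.49, adjusted p = 0.966). Cd28, the main costimulatory receptor, was at 13.2, 13.2, 15.9, 16.7 and 14.7 CPM in Vehicle, 16.01, 13.98, 22.9 and 17.8 in PI3Ki, 13.4, 16.8, 11.3 and 10.5 in SHP2i and 15.8, 15.2, 22.97, 24.5 and 15.5 in Combo, with PI3Ki 3 and Combo 3 and 4 well above every Vehicle tumor. It was not called against Vehicle and was higher in Combo than in SHP2i (log2 fold change 0.53, SE 0.18, adjusted p = 0.0455), a call lost in 18 of 31 alternatives.

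The transcription factors were divided. Tbx21 (T-bet), which drives effector T cell and NK cell programmes, was at 1.75, 1.604, 2.53, 2.502 and 1.57 CPM in Vehicle, 1.08, 2.27, 1.097 and 1.75 in PI3Ki, 0.764, 0.958, 1.54 and 1.57 in SHP2i and 0.438, 0.537, 1.63, 0.389 and 0.221 in Combo. It was lower in Combo (log2 fold change -1.61, SE 0.42, adjusted p = 0.00493) with Combo 3 inside the Vehicle range, and the call was kept in all 31 alternatives. Eomes, its relative, was at 1.71, 2.699, 2.66, 3.57 and 1.79 CPM in Vehicle and 0.919, 0.8495, 4.61, 3.71 and 0.62 in Combo, where Combo 3 and 4 exceeded and the others fell short of all Vehicle tumors (log2 fold change -0.21, SE 0.51, adjusted p = 0.766). Tcf7 and Lef1, factors of naive and stem-like T cells that also act in epithelial Wnt signalling, were not called lower in SHP2i or Combo. Tcf7 was at 31.6, 41.03, 33.8, 53.2 and 41.6 CPM in Vehicle, 17.1, 20.5, 68.1 and 39.7 in PI3Ki and 43.6, 38.7, 69.5, 78.1 and 44.4 in Combo (log2 fold change 0.45, SE 0.30, adjusted p = 0.244). Lef1 was at 12.2, 10.2, 10.4, 16.04 and 11.99 CPM in Vehicle, 4.15, 4.41, 22.2 and 16.1 in PI3Ki and 19.3, 17.7, 23.9, 39.5 and 16.03 in Combo, with 4 of 5 Combo tumors above every Vehicle tumor, and missed the threshold (log2 fold change 0.94, SE 0.40, adjusted p = 0.0665). In PI3Ki both were below the Vehicle range in replicates 1 and 2 and higher in 3 and 5, as Cd79a was higher in 3 and 5, but both peaked in PI3Ki 3 and Cd79a in PI3Ki 5. Tcf7 overlaps Skp1.

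Foxp3, the factor of regulatory T cells, was at 16.4, 15.5, 14.3, 13.5 and 12.3 CPM in Vehicle, 15.1, 15.7, 15.9 and 15.8 in PI3Ki, 13.7, 13.3, 11.3 and 13.6 in SHP2i and 12.9, 9.3, 11.6, 13.7 and 12.8 in Combo, and showed none of the split seen for Cd3e. Its change in Combo was -0.25 (SE 0.11, adjusted p = 0.0648) against Vehicle and -0.37 (SE 0.11, adjusted p = 0.016) against PI3Ki, the latter called with all Combo tumors below all PI3Ki tumors. Foxp3 overlaps Ccdc22 and Flicr, and its level of 3.51 CPM per kb in Vehicle may include reads of these genes. Of the IL-2 receptor chains, Il2ra (CD25), high on regulatory and activated T cells, was at 6.001, 4.77, 4.36, 6.44 and 4.75 CPM in Vehicle and 2.45, 6.66, 22.4, 7.299 and 2.75 in Combo, with Combo 3 far above all other tumors. Il2rb, used by NK and memory T cells, was at 14.8, 16.3, 18.3, 23.6 and 20.1 CPM in Vehicle, 7.44, 6.62, 16.3 and 22.2 in SHP2i and 5.73, 6.75, 23.4, 20.3 and 4.34 in Combo and repeated the split. Neither chain was called in any of the 6 comparisons.

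Within Combo, Cd3e and Cd4 were high in Combo 3 and 4, as were Cd79a and Glycam1. Between these tumors, Combo 3 held more Cd3e and Cd4 and Combo 4 more Cd79a and Glycam1. Plasma cell markers summed to 571.5 CPM in Combo 3, 91.56 in Combo 4 and 6.127 to 42.39 in the other Combo tumors, against 9.901 to 44.95 in Vehicle. Combo was compared with Vehicle again without Combo 3 and 4, the Combo tumors with the highest B cell markers. Then 32 of the 39 genes were called, 2 higher beside 20.3% of all genes and 30 lower beside 19.3%, among them 15 of the 16 called with all tumors, and the median log2 fold change was -1.79 in place of -0.83. Cd3e was then at -2.54, Cd4 at -3.10, Lat at -3.24 and Cd8a at -1.83. The genes that stayed uncalled were Cd28, Tcf7, Lef1, Il2ra, Gzma, Gzmk and Prf1. These tumors were left out for transcripts that were high in the same tumors as the T cell genes, which makes this no test of those genes. With a covariate for B cell content (the mean log2 CPM of the 12 markers) over all 18 tumors, 14 genes were called in Combo, 5 higher (Cd247, Cxcr6, Cd28, Tcf7 and Lef1) beside 19.5% of all genes and 9 lower (the 5 NK receptors, Xcl1, Gzmb, Fasl and Tbx21) beside 17.1%. In that model Cd3e was at -0.11 and Cd4 at -0.05, neither called. The NK receptors were called lower in Combo in all 3 models, with Klrk1 between -3.60 and -3.70 and Klrd1 between -1.40 and -1.44. Without Combo 3 and 4 and with the covariate, in that order, Klrb1c was at -4.25 and -3.59, Ncr1 at -3.82 and -2.75 and Klrg1 at -2.79 and -1.47, so these 3 moved more. For SHP2i the covariate left 2 genes called, Klrb1c and Klrk1, both lower, beside 2.48% of all genes, and moved the median of the 39 genes from -0.77 to 0.01. The B cell markers summed to 19.1 to 25.3 CPM in SHP2i and 44.8 to 154 in Vehicle, without overlap. In this comparison B cell content and treatment thus cannot be told apart, and the part of B cell content in the lower levels was not tested.

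**Figure D5:**
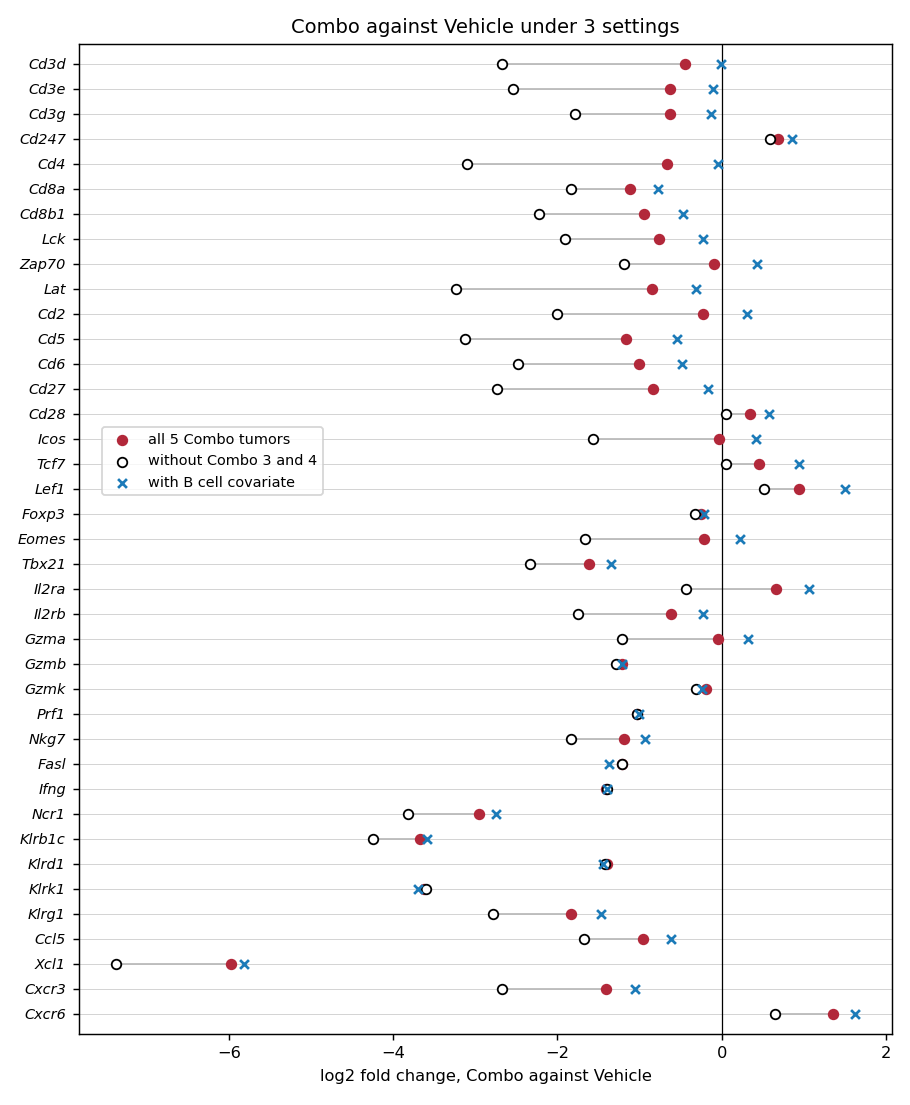
Log2 fold change of each of the 39 genes in Combo against Vehicle (x axis) with all 5 Combo tumors (filled red circles), without Combo 3 and 4 (open circles, joined by a grey line) and with a covariate for B cell markers (blue crosses). Genes of the TCR complex and of adhesion move far between the settings, Cd3e from -2.54 to -0.11, whereas Klrk1, Klrd1, Gzmb, Fasl and Cd247 hardly move.

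Ratios within a tumor do not depend on library scaling, and 4 log2 ratios were compared between each treatment and Vehicle by exact two-sided permutation tests. Of these 12 tests 0 passed after Benjamini-Hochberg adjustment, and 2 had an unadjusted p under 0.05. Gzmb to Cd3e was 1.63 ± 0.28 (SD, n = 4) in SHP2i and 0.66 ± 0.50 (SD, n = 5) in Vehicle, higher in all 4 SHP2i tumors (exact permutation p = 0.0159, adjusted p = 0.19). Foxp3 to Cd3e was 1.75 ± 0.73 (SD, n = 4) in SHP2i and 0.48 ± 0.63 (SD, n = 5) in Vehicle (exact permutation p = 0.0317, adjusted p = 0.19). In Combo it was 1.46 ± 1.53 (SD, n = 5), with 2.66, 2.47 and 2.57 in Combo 1, 2 and 5 and -0.48 and 0.06 in Combo 3 and 4. The Gzmb and Foxp3 ratios share Cd3e, so they also move when Cd3e alone moves. In SHP2i the log2 fold change of Cd3e was -1.40, against -0.15 for Foxp3 and -0.33 for Gzmb, none of them called. Ncr1 to Cd3e was -4.0 ± 1.19 (SD, n = 5) in Combo and -2.41 ± 0.76 in Vehicle (exact permutation p = 0.0635, adjusted p = 0.254), and 3 of the 5 Combo tumors lay below the Vehicle range. Cd8a to Cd4 was 1.06 ± 1.42 in Combo, 0.86 ± 1.16 in PI3Ki, 0.36 ± 0.43 in SHP2i and 0.59 ± 0.42 in Vehicle, differences within the spread of the tumors. The smallest p these tests allow is 0.00794.

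To ask what the second inhibitor added, Combo was compared with each single treatment. Against SHP2i, 5 genes were lower, Ncr1 (log2 fold change -2.16, SE 0.59, adjusted p = 0.0155), Klrk1 (log2 fold change -1.27, SE 0.33, adjusted p = 0.0118), Klrd1, Klrg1 and Xcl1, beside 10.3% of all genes, and 3 were higher, Cd247, Cd28 and Cxcr6, beside 11.8%. Several of these calls were unstable. Klrd1 was lost in 6 of 31 alternatives and Klrg1 in 8, both with the compared groups alone, with a replicate block (adjusted p = 0.0791 and 0.0619) and without SHP2i 4 (0.084 and 0.0795), SHP2i 5 (0.113 and 0.0798) or Combo 4 (0.0654 and 0.0681), and Klrg1 also without Combo 1, 2 or 5 (0.0518, 0.0542 and 0.0699). Ncr1 was lost in 2, with the compared groups alone and without SHP2i 5 (adjusted p = 0.0612), Klrk1 and Cxcr6 in 1 each, and Cd247 in 17, among them RLE, upper quartile and library total scaling and the removal of any SHP2i or Combo tumor. Klrb1c was not called between them (log2 fold change -0.86, SE 0.39, adjusted p = 0.116). Against PI3Ki, 13 genes were lower beside 17.8% of all genes, including the 5 NK receptors, Gzmk, Gzmb, Nkg7, Fasl, Ccl5, Xcl1, Tbx21 and Foxp3, and 2 were higher, Cd247 and Cxcr6, beside 19.9%. The Cd247 call was lost in 20 of 32 alternatives, among them the removal of any Combo tumor, Tbx21 in 8, Gzmb in 5, Cxcr6 in 4, Klrg1 in 2 and Foxp3 and Nkg7 in 1 each. Every Combo tumor was below every PI3Ki tumor for 11 of the 39 genes, beside 11.2% of all genes. Whether the effect of both inhibitors departed from the sum of each alone on the log2 scale was tested as an interaction. By the quasi-likelihood test of edgeR 0 of the 39 genes were called, beside 2.47% of all genes, and 6 had an unadjusted p under 0.05. DESeq2 called 2, Ncr1 and Klrd1, beside 5.02% of all genes. The likelihood ratio test of edgeR called the same 2, beside 4.21%, and limma voom called Klrd1, beside 3.21%. The estimates were -2.69 (SE 0.77, adjusted p = 0.0755) for Ncr1 and -1.51 (SE 0.45, adjusted p = 0.0878) for Klrd1.

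Other genes of the same pathways were read from lists of their own, and their counts stand beside 19.7% of all genes lower and 23.9% higher in Combo, 6.54% and 5.05% in SHP2i and 2.42% and 2.69% in PI3Ki. Of 15 tested NK receptor and granule genes outside the 39, 8 were lower in Combo, 2 in SHP2i and 1 in PI3Ki. Cd244a (2B4), an NK receptor of the SLAM family, had log2 fold changes of -1.10 in PI3Ki, -2.32 in SHP2i and -3.92 in Combo, all called, and Klri2 of -1.53 in SHP2i and -2.75 in Combo, both called. Among 14 further TCR signalling genes 4 were lower in Combo, 3 in SHP2i and 0 in PI3Ki, with medians of -0.56, -1.23 and -0.06. Lcp2 (SLP-76), the adaptor that partners Lat, was at 0.251 times its Vehicle level in Combo and the kinase Fyn at 0.633 times, both called. The 6 tested chemokines that attract T cells were all lower in Combo, with no overlap with Vehicle and a median of -2.07, led by Cxcl16 (-1.73, adjusted p = 1.9e-06) and Cxcl10 (-2.80, adjusted p = 2.29e-05). In SHP2i 1 of these 6, Cxcl16, was lower (-1.12, adjusted p = 0.00122). Of 10 further genes of regulatory T cells 2 were lower in Combo, Itgae (-0.59) and Tnfrsf9 (-0.64), and 1 in SHP2i, shares close to those of all genes. Of 9 genes of naive and recirculating T cells 1 was lower in each, in Combo S1pr1 (-1.30), a receptor for exit from lymphoid tissue, and Dapl1 followed with -1.50 (adjusted p = 0.184). In Combo 1, 2 and 5 S1pr1 held 396, 367 and 379 counts, beside 45, 36 and 47 of Cd3e. Endothelial markers summed to 368 to 476 CPM in Vehicle and 152 to 214 in Combo. Which cells the S1pr1 reads came from was not tested. Cytokines of these cells and their receptors were lower in Combo for 7 of 14 genes, led by Il27 (-3.37), and higher for 1, Il4 (0.72). Of 6 tested genes of gamma delta T cells and innate lymphoid cells, 2 were higher and 0 lower in SHP2i, Cd163l1 (2.83) and Gata3 (0.46), and 3 were higher and 1 lower in Combo, led by Gata3 (1.22) and Sox13 (-1.12). Gata3 held 2469 to 3051 counts in the Vehicle tumors, where Cd3e held 135 to 428. In Combo 1, 2 and 5 Gata3 held 6240, 5350 and 6928 counts, beside 45, 36 and 47 of Cd3e. Which cells the Gata3 reads came from was not tested.

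The tumors themselves differed within groups in how many of the 39 genes lay outside the Vehicle range. In SHP2i 2, 3, 4 and 5 the genes below every Vehicle tumor numbered 33, 33, 24 and 15, where 26.8%, 28.2%, 29.9% and 28.6% of all genes tested lay below in the same tumors. In Combo 1 to 5 they numbered 32, 32, 10, 13 and 32, beside 31.8%, 32.3%, 33.3%, 34.3% and 35.7%, so that Combo 3 and 4 were near the share of all genes. In PI3Ki 1, 2, 3 and 5 they numbered 18, 8, 6 and 1, beside 25.2%, 28.5%, 25.8% and 25.6%, while 4, 9, 14 and 11 lay above every Vehicle tumor, beside 25.3%, 30%, 24.7% and 27%. SHP2i 4 and 5 held more Ptprc than SHP2i 2 and 3 and higher levels of most T cell genes, with B cell markers summing to 19.1 to 25.3 CPM in all 4. Per kb of exon, the highest of the 39 genes in Vehicle were Ccl5 (30.9 CPM per kb), Gzmk (29.2) and Tcf7 (15.3), and the lowest were Eomes (0.673), Fasl (0.715) and Tbx21 (0.801).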

How the data were processed

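Bulk RNA of 18 tumors was read by the authors as poly(A)-selected directional paired-end libraries, trimmed with cutadapt, aligned with STAR to GRCm38 and summarised per gene by QuasR (qCount). The tables as deposited hold raw, unnormalized counts keyed by Entrez Gene ID. The submitters' processing notes name STAR, GRCm38 and also hg19, and tool versions and the strand setting are not given in the sources used here. Symbols and positions come from RefSeq (GRCm38.p6), which matched 22760 of 22792 identifiers, and exon lengths from the mouse annotation of that build.

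Genes were filtered with filterByExpr of edgeR 4.0.16 (minimum count 10, minimum total 15) in R 4.3.3, scaled by TMM and fitted in 1 quasi-likelihood model over all 18 tumors with a mean per group and no covariate. P-values were adjusted by Benjamini-Hochberg over 15282 genes, and a gene was called at an adjusted p under 0.05. Standard errors (SE) were derived from the log2 fold change and its F statistic. Log2 CPM used a prior count of 2. Log2 ratios were compared by exact permutation tests. All 39 genes are named, and of each other pathway list the 2 with the smallest p in Combo against Vehicle, with Cxcl16 and Cd163l1 also in SHP2i. Cell type lists are given by counts and sums, with Cd79a, Glycam1, Ms4a1 and Ptprc named. The genes and lists were chosen with earlier results of these data known. On simulated counts the test for SHP2i recovered 70% of genes with a log2 fold change of 1 and 92% with 2, with 11 false calls among 15164 genes. The changed genes were drawn at random from all genes tested, so these shares need not hold for the 39. In the real SHP2i comparison Cd3d at -1.70 (SE 0.65) and Cd3e at -1.40 (SE 0.62) were not called.

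Alternatives were DESeq2 1.42.0, limma 3.58.1 voom, other scalings, filters and samples, a replicate block and a B cell covariate. Klra1, Klra4, Klra8, Ccl19 and Ccl21a were not used here. Same-numbered tumors of different groups did not deviate together (24 pairs, r from -0.42 to 0.326), so replicate numbers were not used as pairs. No replicates agreed within sampling noise.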

Additional observations from a re-analysis of the deposited data

Results flagged for a closer look

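In groups of 4 or 5 tumors, 1 tumor stood apart from the others by Dixon's test in 8 of 156 tests of the 39 genes. That share is near the 1 in 20 that chance alone gives. Combo 4 held the highest Cd247 (60.3 CPM, the others 46.7 to 49.8), the highest Cxcr6 (46.3 CPM, the others 9.43 to 13.3) and the only Xcl1 of its group (0.0432 CPM, 1 count, the others at 0). SHP2i 3 was high in Gzmk (48.5 CPM, the others 24.1 to 26.7) and low in Klrb1c (0.456 CPM, the others 0.875 to 0.94). SHP2i 4 was low in Foxp3 (11.2 CPM, the others 13.3 to 13.7). PI3Ki 2 was high in Nkg7 (13.6 CPM, the others 7.68 to 8.27), and PI3Ki 1 was low in Klrg1 (0.479 CPM, the others 1.39 to 1.44).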

How the results depend on the processing

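Counts of called genes depended most on the tumors and tests chosen. For SHP2i against Vehicle, 3 genes (11.6% of all genes called) became 7 with DESeq2 (16.2%), 5 with the likelihood ratio test (14%), 13 with limma voom (32%) and 15 with the compared groups alone (21.5%), and the calls over all genes thus rose as well. For Combo against Vehicle, 16 (43.6%) became 29 with limma voom (46.7%) and 32 without Combo 3 and 4 (39.6%). Without these tumors, Combo against SHP2i went from 8 (22.1%) to 13 (17%) and Combo against PI3Ki from 15 (37.7%) to 31 (35.5%). Combo 3 and 4 were left out for transcripts that were high in the same tumors as the T cell genes, so these counts are no test. With the compared groups alone Combo against SHP2i gave 2 (15%). For PI3Ki against Vehicle, 1 (5.11%) became 2 with limma voom (12.4%) and 2 without PI3Ki 3 and 5 (3.31%). The last 2 were Tcf7 and Lef1, both lower. PI3Ki 3 and 5 were left out for transcripts that move with those genes, which makes this no test. The count became 0 without a filter (3.57%), with the B cell covariate (4.1%) or with an absolute log2 fold change over 1 required. The interaction count of 0 (2.47%) became 2 with DESeq2 (5.02%) and 2 with the likelihood ratio test (4.21%). It became 1 with limma voom (3.21%) and 2 without PI3Ki 3 and 5 (2.7%). The cause of these moves was not tested.

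Leaving out 1 tumor at a time gave 0 to 1 genes for PI3Ki, beside 2.94% to 5.87% of all genes. It gave 2 to 4 for SHP2i (6.58% to 14.4%) and 13 to 21 for Combo against Vehicle (37% to 44.7%). Combo against SHP2i gave 3 to 10 (14.3% to 25.2%) and Combo against PI3Ki 11 to 18 (27.7% to 39%). The interaction gave 0 to 2 (0.965% to 3.96%). Combo against SHP2i fell to 3 without SHP2i 5 (17.1%) and to 4 without SHP2i 4 (15.9%) or Combo 4 (16.7%). The interaction gave 2 without SHP2i 3 (2.2%) or Combo 3 (3.88%). Over all called genes and settings, 0 log2 fold changes reversed, and with 1 tumor left out 684 calls were kept and 90 lost, against 512 kept and 53 lost in the other settings. No ratio passed adjustment in any setting.

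The replicate numbers did not mark pairs. With a replicate block, PI3Ki gave 0 genes, beside 3.8% of all genes tested, SHP2i 7 (10.3%) and Combo against Vehicle 18 (41.5%). Combo against SHP2i then gave 6 (19.7%), Combo against PI3Ki 15 (34.5%) and the interaction 0 (1.31%). Of 18 tumors, 4 correlated best with a tumor of their own number. With library totals alone, the share of called genes that were higher moved from 52.6% to 37.8% of all genes called for PI3Ki and from 53.3% to 37.2% for Combo against SHP2i. At 4 or 5 tumors a group, a missed threshold does not show that levels were alike.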
